A study of Gallus gallus with 10 samples.

Results

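The transcripts described here were higher in both otocysts of 2 of 5 chicken embryos than in any otocyst of the other 3, where most, but not all, were at or near 0. They were chosen from the deposited TPM values (a level scaled to transcript length and to library) by 3 conditions. All 4 libraries of embryos 76 and 81 had to lie above all 6 libraries of embryos 77, 79 and 82, the mean of the 4 had to be at least 1 TPM, and it had to be at least 4 times the mean of the 6. These conditions selected 99 of 25747 Ensembl chicken transcripts. The difference between the 2 sets of embryos was what chose the transcripts, so it is given below as a description, with no test.

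Otocysts, the epithelial vesicles from which the inner ear forms, were dissected from White Leghorn embryos at embryonic day 2.5, freed of mesenchyme and cultured singly, free floating, for 24 h. The right otocyst of each embryo was kept in 300 µM IWR-1, which blocks tankyrase and thereby keeps axin stable, dampening the canonical Wnt pathway. The left otocyst was kept in DMSO, the vehicle. The 10 otocysts were sequenced separately, as 5 IWR-1 and 5 DMSO libraries, with total estimated counts of 24470010 to 28572053. Treatment and body side cannot be told apart, since every right otocyst was the treated one. The labels name no genotype and no sex.

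In birds the female carries a Z and a W chromosome and the male carries a pair of Z chromosomes. The W chromosome is small and has lost most of its genes. Many of those it keeps have a similar counterpart on the Z chromosome, are expressed in many tissues and are thought to be sensitive to gene dose. RNA from the W chromosome is therefore a familiar mark of female tissue in chicken, and the 99 transcripts were proposed as candidates for such RNA. The files pair no transcript ID with a gene name or a chromosome. The reference table of chicken genes (assembly GRCg7b) holds no Ensembl transcript IDs. That 0 of the 99 IDs were found in it therefore says nothing about these transcripts. Whether any of the 99 lies on the W chromosome was therefore not tested, no gene name is given, and the tissue label was not checked against marker genes.

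The 99 transcripts together made up 0.852% to 0.953% of the TPM of each library of embryos 76 and 81. Their summed level was 8847 TPM in the right and 9528 TPM in the left otocyst of embryo 76, and 8515 TPM in the right and 9187 TPM in the left otocyst of embryo 81. In embryo 77 the sum was 108 TPM in the right and 134 TPM in the left otocyst. It was 102 and 132 TPM in embryo 79, and 124 and 131 TPM in embryo 82. The right otocyst, kept in IWR-1, thus had the lower sum in every embryo. As a share of estimated counts the right was slightly higher in embryo 82 (0.0151% against 0.0150%) and lower in the others. This direction was not tested. The mean sum was 9019 ± 436 TPM (SD, n = 4 libraries from 2 embryos) against 122 ± 13.7 TPM (SD, n = 6 libraries from 3 embryos), which is a residual of 1.35%. From CPM, counts scaled to library size and not to length, the residual was 2.62%. In these bulk samples, fewer cells of a type and less RNA per cell cannot be told apart. Of all 25747 transcripts, 0.994% had the 4 libraries of embryos 76 and 81 above the other 6, and 1.91% had them below. In the opposite direction the same conditions selected 12 transcripts, against 99.

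**Figure D1:**
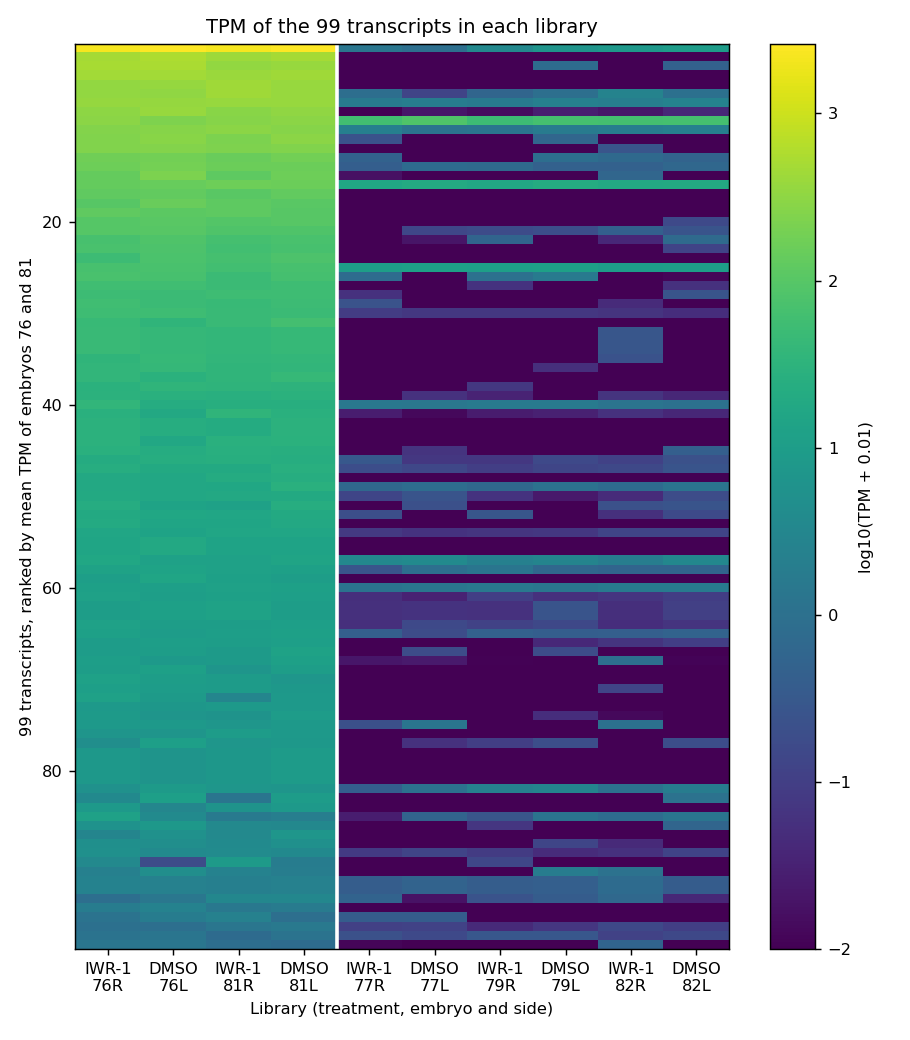
TPM of the 99 transcripts (rows, ranked by their mean over embryos 76 and 81) in the 10 libraries (columns, with treatment, embryo and side), coloured on a log10(TPM + 0.01) scale. The 4 libraries left of the white line are those of embryos 76 and 81, and in the 6 to the right 29 rows are at 0 throughout and a few, near ranks 9, 16 and 25, keep a visible level.

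A few abundant transcripts carried most of this signal. ENSGALT00000050894.1, a transcript of 328 bases, was the most abundant, with 26.4% of the summed level. It had 2235 TPM in the right and 2600 TPM in the left otocyst of embryo 76, and 2224 and 2478 TPM in those of embryo 81. In embryos 77, 79 and 82 it had 1.32, 3.37 and 7.89 TPM in the right otocysts and 0.943, 6.20 and 9.67 TPM in the left. The 4 high libraries differed from each other by at most 1.17-fold, and the 6 low ones were lowest on both sides in embryo 77 and highest on both sides in embryo 82. In embryos 77, 79 and 82 these were 4.23, 10.3 and 27.1 estimated counts on the right and 2.75, 18.6 and 30.5 on the left. This order was not tested.

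The next 7 transcripts had means of 322 to 484 TPM over the 4 libraries, and with the first they held 57.6% of the summed level. ENSGALT00000054163.1 (599 bases) had 476 and 566 TPM in the right and left otocyst of embryo 76, and 410 and 485 TPM in those of embryo 81. ENSGALT00000051715.1 (1075 bases) had 459, 462, 408 and 432 TPM in the same order, and ENSGALT00000058877.1 (727 bases) had 338, 365, 444 and 375 TPM. These 3 were at 0 counts in all 6 libraries of embryos 77, 79 and 82. A count of 0 allows up to 3 counts per library, so in CPM they were at least 1326-fold, 2572-fold and 1363-fold higher in embryos 76 and 81. They have the highest such bounds of the 29 transcripts at 0 in all 6. For the 29 the median bound was 73.4-fold, and for 4 identical short transcripts it was 2.76-fold, so that a 0 in a weak transcript gives only a low bound. These bounds cover counting error only.

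The other 4 of the 8 most abundant had values above 0 in the low libraries. ENSGALT00000078919.1 (261 bases) had 501, 539, 348 and 388 TPM in the 4 high libraries, in the order 76 right, 76 left, 81 right, 81 left. It was above 0 in 2 of the 6 low ones, the left otocysts of embryos 79 and 82, at 0.818 and 0.459 TPM (1.35 and 0.797 estimated counts). ENSGALT00000076266.1 (1363 bases) had 352, 325, 435 and 381 TPM against 0.116 to 2.64 TPM. ENSGALT00000060444.1 (1899 bases) was the most even of the 8, with 367, 360, 375 and 374 TPM against 1.58 to 2.52 TPM. ENSGALT00000065640.1 (1557 bases) had 307, 374, 283 and 323 TPM, and its mean of the 6 was 0.0126 TPM. None of the 6 held more than 0.849 estimated counts of it. For ENSGALT00000078919.1 and ENSGALT00000065640.1 the residual lies below the 3 counts that a 0 allows, so it cannot be told apart from 0.

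The remaining 91 transcripts ranged widely in level. Of all 99, 19 averaged at least 100 TPM over the 4 high libraries, 49 lay between 10 and 100 TPM, and 31 were below 10 TPM. Their median was 18.8 TPM, where the 15243 transcripts with a mean of at least 1 TPM in these libraries had a median of 11.8 TPM. At the fold limit, ENSGALT00000053752.1 was just inside at 4.24-fold, followed by ENSGALT00000052745.1 at 4.46-fold and ENSGALT00000081464.1 at 4.84-fold. Just outside were ENSGALT00000077847.1 at 3.72-fold (1.56 against 0.418 TPM), ENSGALT00000067844.1 at 3.63-fold (1.20 against 0.330 TPM) and ENSGALT00000068397.1 at 3.55-fold (2.79 against 0.785 TPM).

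The residual signal in embryos 77, 79 and 82 differed in kind between transcripts. In 29 transcripts it was 0 in all 6 libraries, in 35 it was above 0 in 1 to 5 libraries, and in 35 it was above 0 in all 6. In 47 transcripts, the 29 included, every one of the 6 libraries held fewer than 3 estimated counts. The 18 of these that were above 0 are given below at their estimated residual, with no bound, so their percentages are uncertain. Of the 70 transcripts above 0 in any of the 6, the mean of the 6 was under 1% of the mean of the 4 in 45, 1% to 5% in 7 and at least 5% in 18. For the 29 at 0, the bound of 3 counts placed the residual at or under 1% in 14 and left it undetermined at that level in 15. The median residual over the 99 was 0.206% with zeros taken as 0 and 0.609% with zeros at their bound. Of the 18 with at least 5%, 11 had a mean below 10 TPM in the high libraries, and the residual ranged up to 23.6%. Between 44 and 56 of the 99 transcripts were above 0 in any 1 of the 6 libraries.

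**Figure D2:**
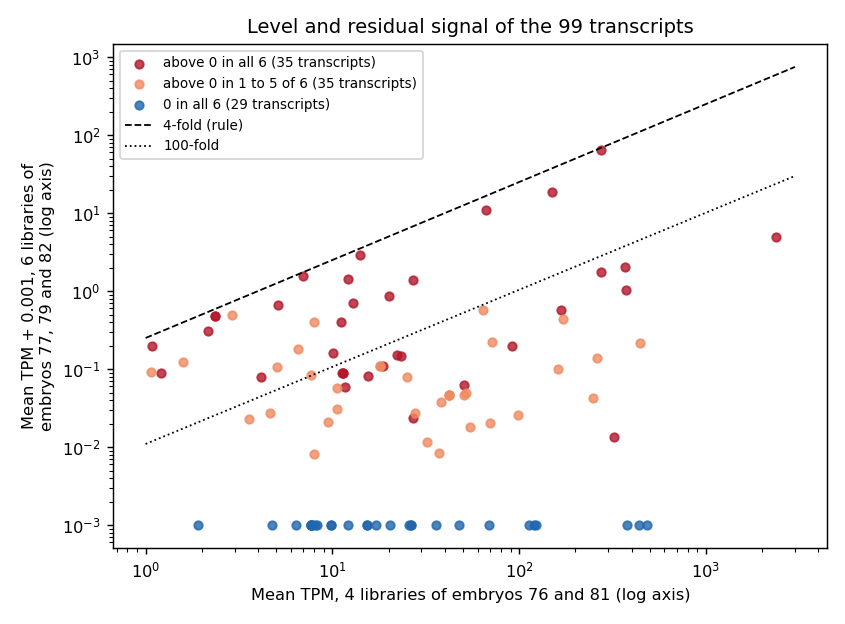
Mean TPM over the 4 libraries of embryos 76 and 81 (horizontal log axis) and mean TPM + 0.001 over the 6 libraries of embryos 77, 79 and 82 (vertical log axis) for the 99 transcripts, coloured by how many of the 6 libraries were above 0. The dashed line is the 4-fold limit of the rule and the dotted line marks 100-fold; 29 points lie on the floor and the 3 highest points are the transcripts with 11.0 to 64.6 TPM in the 6 libraries.

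Most of the residual came from 3 transcripts, which held 77.7% of it. ENSGALT00000053752.1 (1339 bases) had 291, 231, 275 and 301 TPM in the high libraries (76 right, 76 left, 81 right, 81 left) and 50.8 to 82.3 TPM in the 6 low ones, at a mean of 64.6 ± 10.3 TPM (SD, n = 6). ENSGALT00000054516.1 (1891 bases) had 138, 145, 163 and 155 TPM against 17.1 to 21.0 TPM, and ENSGALT00000077692.1 (4505 bases) had 67.5, 71.5, 59.9 and 68.1 TPM against 9.89 to 12.0 TPM. In all 3 the residual was steady, with the highest of the 6 libraries less than 2 times the lowest. Without these 3 the summed level of the others in the 6 libraries was 0.318% of that in the 4.

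A steady residual was found in 11 of the 35 transcripts that were above 0 in all 6 libraries, where the highest of the 6 was less than 2 times the lowest. In 9 of the 35 the 6 libraries spanned at least 10-fold. ENSGALT00000072373.1, a transcript chosen after its values were seen, is an example of the latter. It had 10.8, 8.62, 8.86 and 12.0 TPM in the high libraries and 0.932 TPM in the right otocyst of embryo 82, while the other 5 low libraries had at most 0.0149 TPM. In estimated counts these were 65.1 and at most 0.883. Some other wide spans lay near or below 1 count. In the 6 libraries ENSGALT00000065640.1 held 0.00708 to 0.849 estimated counts and ENSGALT00000058489.1 held 0.0752 to 1.31. Spans of that kind, near or below 1 count, are not measured differences between libraries. Further wide spans reached higher estimated counts. They were 2.75 to 30.5 in ENSGALT00000050894.1, 2.70 to 72.1 in ENSGALT00000076266.1 and 2.46 to 220 in ENSGALT00000046963.1. What lay behind these spans was not tested.

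The estimated counts show how far reads were divided. The deposited values come from a program that divides a read among the transcripts it fits, which leaves decimals in the counts. Counts with decimals in at least 1 library were found in 98 of the 99 transcripts, and in 62.3% of the transcripts with a mean of at least 1 TPM in the 4 libraries. The exception was ENSGALT00000061086.1 (408 bases), with whole counts of 171, 130, 187 and 213 in the 4 high libraries (76 right, 76 left, 81 right, 81 left) and 0 in the 6 others. Nearly all of the 99 therefore shared some reads with another transcript, and how much of each level is uncertain for that reason was not tested.

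Some of the sharing was within the 99. In 6 groups the members had identical values in every library, so that the 99 IDs carried 90 separate patterns. A group of 4, ENSGALT00000051500.1, ENSGALT00000059032.1, ENSGALT00000065672.1 and ENSGALT00000080246.1, had 234 bases each and 7.75, 6.27, 7.30 and 9.41 TPM in the high libraries. A group of 3, ENSGALT00000048166.1, ENSGALT00000068686.1 and ENSGALT00000070852.1, had 231 bases each and 46.2, 40.5, 38.6 and 42.8 TPM. The other 4 groups were pairs of equal length. These members are not separate measurements. Short transcripts were common, since 12.1% of the 99 were under 300 bases, against 0.977% of the transcripts with a mean of at least 1 TPM, and the 7 members of these groups are among them. The median length was 1339 bases, against 1810 bases.

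For 7 of the 90 patterns the decimals pointed to 1 partner outside the 99. A partner was a transcript whose estimated count added to that of the selected one to a whole number, within the rounding of the printed digits, in every library where the selected one had decimals, 6 to 10 libraries a pair. In at least 6 of these both decimals had to exceed a rounding error below 0.05 counts. In 5 of the 7 pairs the partner lay lower in all 4 libraries of embryos 76 and 81 than in all 6 others, 1.54-fold to 1.86-fold, a direction in which 1.91% of all transcripts did not overlap. The rule did not read the partner's values, but reads assigned to one transcript of a pair are taken from the other, so the values of a pair are not independent. The sets of embryos were also fixed by the selected transcripts, and no test was made.

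The pair with the highest level was ENSGALT00000067307.1 (444 bases) with its partner ENSGALT00000029777.4 (917 bases). The selected transcript had 261, 267, 292 and 275 TPM in the high libraries, in the order 76 right, 76 left, 81 right, 81 left, and 1.16 to 2.31 TPM in the others. The partner had 393, 412, 423 and 407 TPM in embryos 76 and 81 and 626 to 687 TPM in embryos 77, 79 and 82. Their sum was 682 ± 25.2 TPM (SD, n = 4) against 654 ± 24.0 TPM (SD, n = 6), and the sums of the 2 sets of embryos overlapped, at 654 to 715 TPM and 627 to 689 TPM. In this pair the level was divided between both transcripts in embryos 76 and 81 and lay with the partner in the other 3.

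ENSGALT00000048854.1 (2646 bases) had a similar pattern. It had 52.9, 54.5, 46.8 and 48.7 TPM in embryos 76 and 81 and 0.0412 to 0.0809 TPM in the others, while its partner ENSGALT00000009290.5 had 50.5 to 60.3 TPM and 88.6 to 105 TPM. The sums overlapped, at 97.3 to 114 TPM against 88.6 to 105 TPM. In the next 3 pairs the sum stayed higher in embryos 76 and 81. For ENSGALT00000077692.1 with ENSGALT00000045826.1 the sum was 93.4 to 107 TPM against 71.9 to 83.3 TPM. For ENSGALT00000075600.1 with ENSGALT00000042770.2 it was 82.4 to 93.6 TPM against 46.7 to 56.1 TPM. For ENSGALT00000066435.1 with ENSGALT00000045279.2 it was 32.3 to 45.3 TPM against 13.4 to 24.6 TPM.

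The last 2 pairs differed from these. ENSGALT00000080201.1 was a weak transcript of 2.89 TPM beside a partner, ENSGALT00000011020.5, of 116 ± 3.19 TPM in embryos 76 and 81 (SD, n = 4) and 113 ± 8.99 TPM in the others (SD, n = 6). ENSGALT00000046963.1, the longest of the 99 at 14439 bases, had 2.17 TPM beside ENSGALT00000017157.4, which had 8.14 ± 1.71 TPM (SD, n = 4) and 9.32 ± 0.923 TPM (SD, n = 6). In both, the partner's values overlapped between the 2 sets of embryos.

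**Figure D3:**
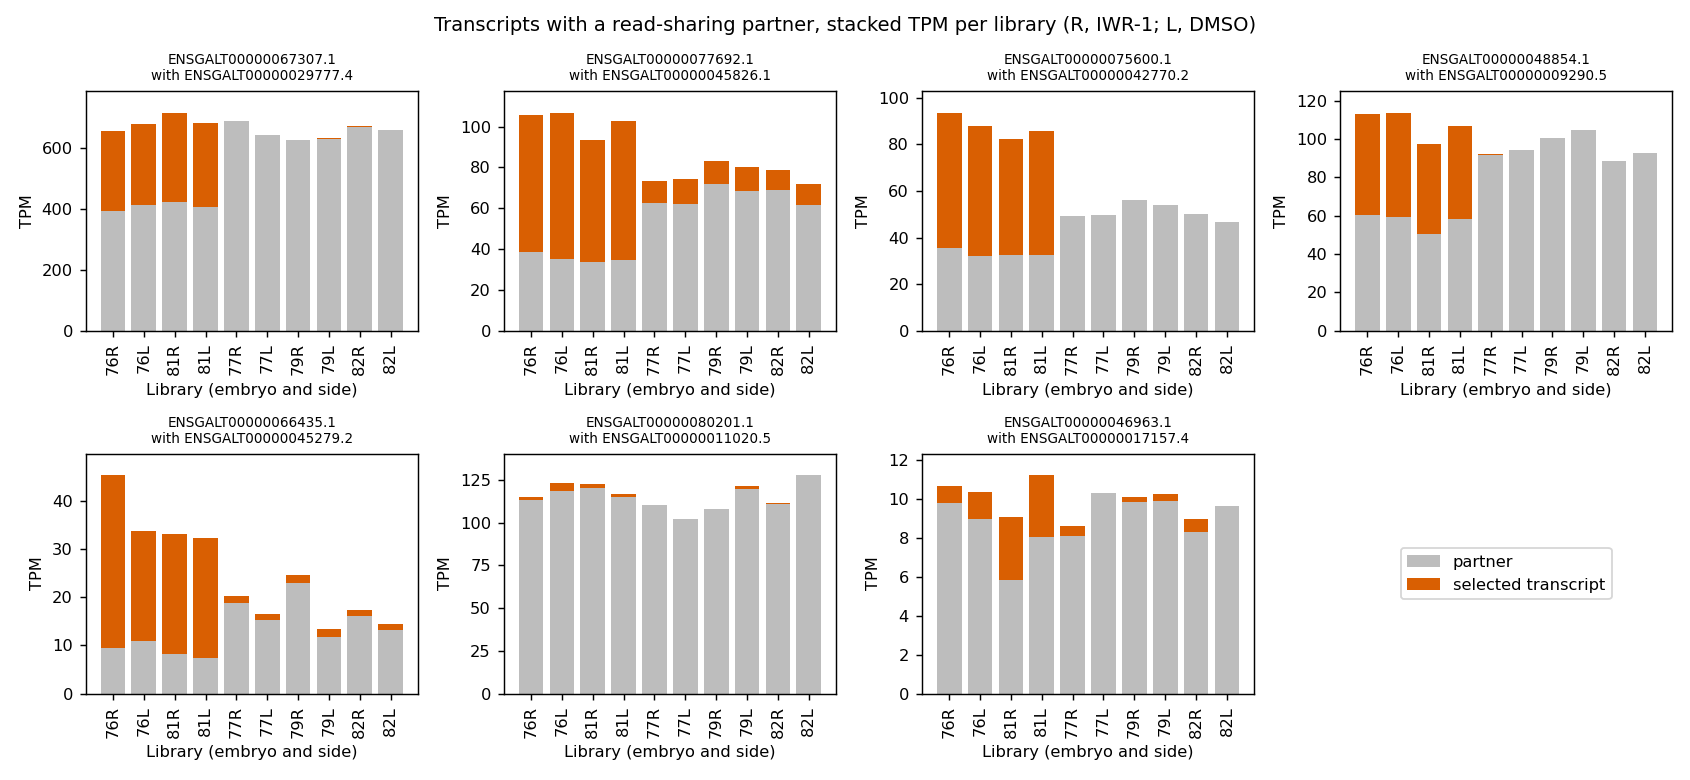
Stacked TPM of 7 selected transcripts (orange) and their read-sharing partners (grey) in each of the 10 libraries, named by embryo and side (R, right, IWR-1; L, left, DMSO); each bar is 1 library. In the first 5 panels the grey part is lower in the 4 libraries of embryos 76 and 81 than in the other 6, and in the panels of ENSGALT00000067307.1 and ENSGALT00000048854.1 the full bars overlap between the 2 sets.

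The left and right otocysts of an embryo gave much the same levels. In embryo 76, 87 of the 99 transcripts differed by less than 1.5-fold between the sides, and in embryo 81, 91 did, on the log2(TPM + 1) scale. These shares, 87.9% and 91.9%, were near those of all transcripts with a mean of at least 1 TPM, 89.4% and 90.7%. The median absolute log2 ratio of right to left was 0.21 in embryo 76 and 0.17 in embryo 81, against 0.19 and 0.18 over those transcripts. Across the 99 transcripts the log2 TPM of the 2 sides correlated at r = 0.965 in embryo 76 and r = 0.977 in embryo 81. These values describe a wide range of levels in libraries that share transcript lengths, and transcripts are not independent.

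**Figure D4:**
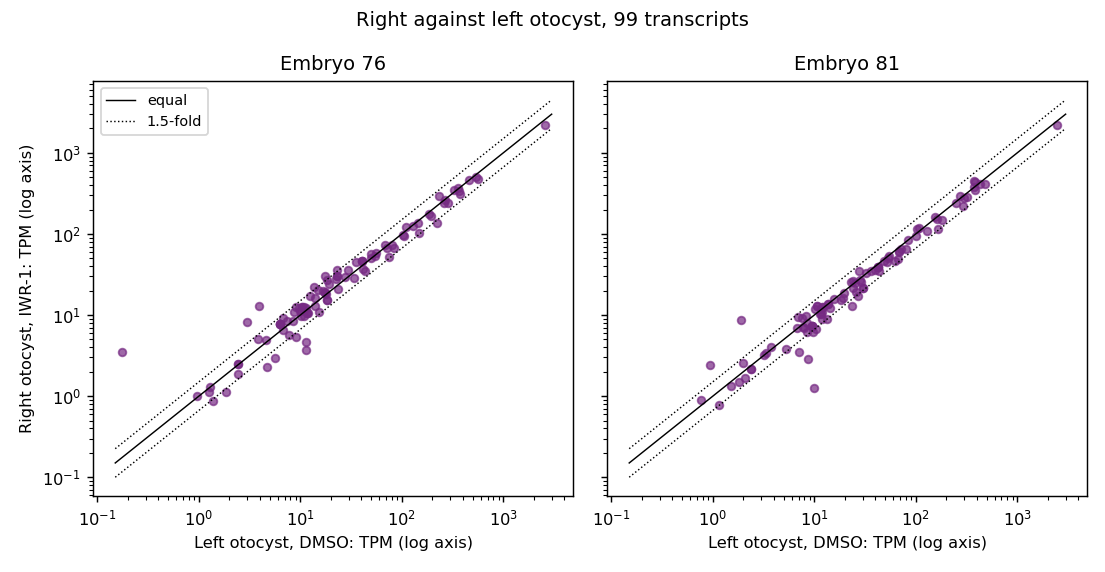
TPM of the 99 transcripts in the left otocyst with DMSO (horizontal log axis) and the right otocyst with IWR-1 (vertical log axis), 1 panel for each of embryos 76 and 81. The solid line marks equal levels and the dotted lines 1.5-fold; most points lie between the dotted lines, and the scatter is widest at low TPM.

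Among the selected transcripts the 2 embryos also had similar levels. The ratio of embryo 81 to embryo 76, each the mean of both sides, had a median of 0.961 and was within 1.5-fold in 92 of the 99. Over the 4 libraries the highest value was less than 2 times the lowest in 88 transcripts. No share over all transcripts is given for either count, so whether the 99 were more alike than others was not tested. The selection also required each of these 4 libraries to lie above every library of the other embryos. A transcript absent from any of the 4 could therefore not be among the 99. The widest spreads were in weak transcripts, named here after their values were seen. ENSGALT00000082970.1 (270 bases) had 3.51 and 0.174 TPM in the right and left otocyst of embryo 76 and 8.80 and 1.91 TPM in those of embryo 81. ENSGALT00000065706.1 (222 bases) had 3.70, 11.3, 1.25 and 9.94 TPM in the same order, and ENSGALT00000059687.1 (1552 bases) had 12.8, 3.90, 1.69 and 2.08 TPM. The first was higher on the right in both embryos and the second higher on the left in both, while the third was high in 1 otocyst alone. In estimated counts the first had 6.61, 0.308, 18.7 and 3.76 in the same order, and the second 3.36, 9.64, 1.28 and 9.41. The directions of these 2 therefore rest on few reads, and both had too few counts to be tested for IWR-1.

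The last comparison asked whether IWR-1 changed these transcripts within embryos. No change was called. In edgeR's quasi-likelihood test with the embryo as a block, 0 of the 91 transcripts that passed the count filter had a Benjamini-Hochberg adjusted p below 0.05, and the smallest adjusted p was 0.469. The background was 0.0% called, 0 of the 18108 transcripts tested. At an unadjusted p below 0.05 there were 2 of the 91 (2.20%), against 1796 of 18108 (9.92%). DESeq2, limma-voom and limma on TPM, each with the embryo block, also called 0 of the selected transcripts, where over all transcripts DESeq2 called 1.49% and limma-voom 0.0442%. The other 8 transcripts had too few counts to be tested, fewer than 10 in at least 1 of the 4 high libraries.

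The fitted differences were small for most of the 91. The log2 fold change of IWR-1 over DMSO was between -0.5 and 0.5 in 81 of them, with a median of -0.070 against 0.0054 over all transcripts tested. It was below 0 in 55 (60.4%) and above 0 in 36, where 48.8% of all transcripts tested were below 0. With identical transcripts counted once, it was below 0 in 52 of 86. No test was made of this share. The median standard error was 0.28, larger than most of the absolute differences, and was 0.14 over all transcripts tested. Some well-counted members also had a large standard error. ENSGALT00000048371.1 had 948 to 1102 estimated counts in the high libraries and 6.70 in 1 low library, with a standard error of 1.21. For ENSGALT00000051715.1, at 0 in all 6 low libraries, it was 0.07. For a transcript at 0 in the 6 low libraries the fit rests on 2 embryos, and for one with residual counts all 5 embryos enter, so that a fitted value can differ from the TPM of embryos 76 and 81. In a fit of embryos 76 and 81 alone the median log2 fold change of the members was -0.012.

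Among the 8 most abundant, 5 were lower on the IWR-1 side in both embryos, 2 were higher in both and 1 differed between them. For the most abundant, ENSGALT00000050894.1, the log2 fold change was -0.19 (SE 0.09, edgeR adjusted p = 0.562), or -0.30 with either library of embryo 81 left out, and for ENSGALT00000054163.1 it was -0.21 (SE 0.09, edgeR adjusted p = 0.575). Over all 99, 28 were lower on the IWR-1 side in both embryos (28.3%), 14 higher in both (14.1%) and 57 mixed, against 31.6%, 20.5% and 47.9% of the transcripts with a mean of at least 1 TPM.

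The smallest p-values in the lower direction belonged to 3 transcripts that were above 0 in all 6 low libraries. ENSGALT00000071949.1 had 18.8 and 17.6 TPM in the right and left otocyst of embryo 76 and 17.1 and 27.2 TPM in those of embryo 81. It was higher on the IWR-1 side in embryo 76 and lower in embryo 81. In embryos 77, 79 and 82 it was lower on that side, at 0.663 against 0.872, 0.656 against 1.06 and 0.786 against 1.18 TPM. From all embryos its log2 fold change was -0.39 (SE 0.15, edgeR adjusted p = 0.469). ENSGALT00000052745.1 had 5.35, 8.99, 6.85 and 6.69 TPM in the same order, with a log2 fold change of -0.58 (SE 0.23, edgeR adjusted p = 0.488). In embryos 76 and 81 alone the fitted value was -0.32. On the IWR-1 side this transcript was lower in embryo 76 and slightly higher in embryo 81. It was also lower on that side in embryos 77, 79 and 82, at 0.408 against 1.04, 2.27 against 2.75 and 1.01 against 1.90 TPM. ENSGALT00000077692.1 was lower on the IWR-1 side in both embryos, with a log2 fold change of -0.082 (SE 0.04, edgeR adjusted p = 0.519).

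In the higher direction the smallest p-values were those of ENSGALT00000066435.1, ENSGALT00000077789.1 and ENSGALT00000058489.1. ENSGALT00000066435.1 had 35.8 and 22.8 TPM in the right and left otocyst of embryo 76 but 25.0 and 24.9 TPM in those of embryo 81, with a log2 fold change of 0.25 (SE 0.11, edgeR adjusted p = 0.539), or 0.13 with either library of embryo 76 left out. ENSGALT00000077789.1 had 16.3, 14.0, 15.9 and 15.7 TPM in the same order and a log2 fold change of 0.15 (SE 0.08, edgeR adjusted p = 0.585). ENSGALT00000058489.1 had 27.1, 18.2, 35.0 and 27.3 TPM and a log2 fold change of 0.43 (SE 0.24, edgeR adjusted p = 0.616). All 3 were higher on the IWR-1 side in both embryos, but in embryo 81 the sides were nearly equal for ENSGALT00000066435.1 and ENSGALT00000077789.1. None passed the test.

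**Figure D5:**
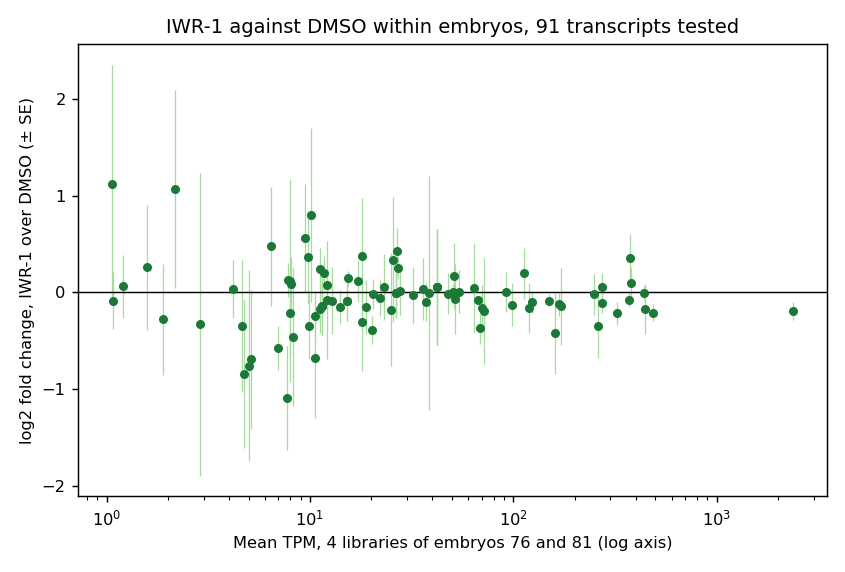
log2 fold change of IWR-1 over DMSO with its standard error (edgeR, embryo as a block) against the mean TPM of embryos 76 and 81 (log axis) for the 91 transcripts tested. Points scatter around 0, and 81 of the 91 lie between -0.5 and 0.5. The error bars are mostly wider at low TPM, with exceptions such as ENSGALT00000048371.1 (38.4 TPM, standard error 1.21).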

How the data were processed

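Each library has 1 deposited table with kallisto's columns. Per the submitters' processing notes, bcl2fastq and kallisto were used with the GRCg6a build; their versions are not given in the sources used here. The deposited estimated counts per transcript are raw values, in which a multiply mapping read is split between its transcripts. TPM, also as deposited, is the same quantity after scaling to length and to 1 fixed sum in every library. The 9 added construct sequences were left out. The adaptor held molecular identifiers, but their use is not stated in the labels, and reads are not taken as independent molecules.

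Estimated counts were rounded. Transcripts with at least 10 counts in at least 4 libraries were tested in R 4.3.3 with edgeR 4.0.16 (TMM, robust quasi-likelihood, two-sided, embryo as a block). Adjusted p-values (Benjamini-Hochberg) run over all 18108 transcripts tested, called below 0.05. The standard error is the log2 fold change divided by the root of F. DESeq2 1.42.0 and limma 3.58.1 were alternatives. The fit was tested on simulated data. The block follows the labels, by which both otocysts of each embryo were used. Deviations from group means correlated at 0.291 to 0.389 between otocysts of 1 embryo and -0.288 to 0.289 between embryos. Each otocyst is 1 sample of 1 embryo.

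The members, the lists and the tests were chosen with earlier results of these data known. Named were the 8 most abundant members, the 3 of highest residual, the 3 nearest the fold limit on each side and the 3 of smallest p in each direction. Marker lists need gene names and were not used. Decimals were read to the 6 digits printed, using libraries where the summed rounding error was below 0.05 counts.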

Additional observations from a re-analysis of the deposited data

How the results depend on the processing

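With fold limits of 2 or 8, level limits of 0.5 or 5 TPM, or CPM in place of TPM, 118, 88, 104, 86 or 92 transcripts were selected, and without 1 library 100 to 114. Of the 99, 98 share reads, so that whole-count transcripts alone left 1. Counting identical transcripts once, chosen after seeing the data, gave 90. No member was called between IWR-1 and DMSO in any of the 22 alternatives, which tested 32 to 99 members, and the smallest adjusted p was 0.197. Over all transcripts the 0 calls with the replicate block became 1 with no replicate block, 269 with DESeq2, 8 with limma-voom, 3 with limma on TPM at a pseudocount of 1 or 0.1, 3 without robust shrinkage, and 0 to 3 without 1 library, the 3 arising without the IWR-1 library of embryo 82; the cause was not tested. The median log2 fold change of the members was -0.145 to -0.019 without 1 library. It was -0.012 in embryos 76 and 81 alone, -0.0091 without the block and -0.015 with limma-voom. Of 344 values for the 17 named members, 335 kept their direction, and none was called. ENSGALT00000060444.1 reversed to 0.050 without the block, 0.023 with limma-voom and 0.049 in embryos 76 and 81 alone. Without the block and in those embryos alone, ENSGALT00000053752.1 reversed to 0.021 and 0.14, ENSGALT00000054516.1 to 0.012 and 0.034, and ENSGALT00000081464.1 to 0.034 and 0.15. The median absolute log2 ratio between sides was 0.16 from CPM and 0.30 in the 1 whole-count member. The residual was 2.62% from CPM, which is not divided by length, and 0 in the whole-count member. Depth limits the weak members: 8 could not be tested, and 29 at 0 could hold up to 3 counts per library.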
